A study of Mus musculus with 8 samples.

Results

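Complement components and receptors are described here in tumor-associated macrophages (TAMs) through 9 of the 53247 genes in the table. These 9 genes were chosen by name, with earlier results of these data known. They are C1qa, C1qb and C1qc, the subunits of C1q, then C3, Cfb (factor B), Cfp (properdin), Serping1 (C1 inhibitor), and the anaphylatoxin receptors C3ar1 and C5ar1. Cells positive for CD45, CD11b, MHCII and F4/80 were sorted as TAMs from subcutaneous tumors of LLC (a Lewis lung carcinoma line of the mouse), and mRNA was sequenced from 4 WT and 4 miR-21-/- samples. All mice were C57/BL6, 10 weeks old, and carried the same tumor line, which was implanted 14 days earlier and was the only treatment. The miR-21-/- mice are labelled miR-21 null, a germline deletion that is not limited to macrophages, so that every host cell of these tumors lacked miR-21. The labels call the samples biological replicates, but miR-21-/- replicate 1 carries a double number in its title, and no source used here states whether it pools mice.

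Complement is a protein cascade of innate immunity. C1q binds antibody complexes, dying cells and microbes and starts the classical pathway through the proteases C1r and C1s, whereas the alternative pathway starts from C3 itself, with factor B as the protease of its convertase and properdin as the protein that stabilizes it. Cleavage of C3 and C5 releases the anaphylatoxins, small peptides that act on C3ar1 and C5ar1 of myeloid cells, and C1 inhibitor blocks C1r and C1s. Macrophages are a main source of C1q, while most plasma C3 and factor B come from the liver.

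The miRNA deleted in these mice and the upstream sequences of 3 members are shown first, because C3 and C1q are the members the results turn on. The mature mouse miR-21 (RefSeq, GRCm38.p6, chr11:86584120-86584141, minus strand) is printed with its seed, bases 2 to 8, in capitals.

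mmu-miR-21a-5p: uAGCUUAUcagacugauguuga

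The longest annotated 3′ UTR of each member (GENCODE vM21) was searched for the bases that pair with this seed. None of the 9 members held a site of even 6 bases (TAAGCT), which 23.4% of the 20974 genes with an annotated 3′ UTR held. The UTRs of the members ranged from 43 bases for C3 to 2685 bases for C3ar1. All except those of C3ar1 and C5ar1 (1295 bases) had 239 bases or fewer. The share over all genes was not matched for length. The longer sites ATAAGCT and ATAAGCTA were held by 7.18% and 2.10% of all genes. This says only that these letters were not in these windows.

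The 250 bases upstream of the RefSeq start (GRCm38.p6, all on the minus strand and written 5′ to 3′) were searched on both strands for 5 short motifs known from myeloid and inflammatory promoters. Capitals mark the matches. In C3 (chr17:57228137-57228386) the C/EBP letters TTGCNNAA matched 45 to 38 bases before the start. In C1qb (chr4:136886201-136886450) and C1qc (chr4:136892915-136893164) the PU.1 letters GAGGAA matched, on the written strand in C1qb and on the opposite strand in C1qc.

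C3 promoter: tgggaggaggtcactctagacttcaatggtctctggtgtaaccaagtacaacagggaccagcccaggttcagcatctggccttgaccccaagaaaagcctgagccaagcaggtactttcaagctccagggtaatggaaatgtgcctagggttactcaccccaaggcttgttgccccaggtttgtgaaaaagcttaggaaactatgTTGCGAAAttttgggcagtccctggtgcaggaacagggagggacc
C1qb promoter: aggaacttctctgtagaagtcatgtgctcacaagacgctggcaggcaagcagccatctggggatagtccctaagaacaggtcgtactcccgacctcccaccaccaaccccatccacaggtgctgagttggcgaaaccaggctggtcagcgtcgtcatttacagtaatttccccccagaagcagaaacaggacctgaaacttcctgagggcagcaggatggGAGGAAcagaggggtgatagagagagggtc
C1qc promoter: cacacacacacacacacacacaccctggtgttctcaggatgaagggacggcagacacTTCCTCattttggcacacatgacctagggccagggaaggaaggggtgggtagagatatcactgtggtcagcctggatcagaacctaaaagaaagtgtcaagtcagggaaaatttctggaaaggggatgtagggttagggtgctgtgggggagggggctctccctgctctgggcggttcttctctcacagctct

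Of 32851 promoters of the same length, 9.56% held the C/EBP letters and 23.3% the PU.1 letters. Of the other 3 members with a promoter in the table, C3ar1 held 2 overlapping matches to the NF-kB letters GGNNNTTCC, which 15.7% of promoters held. C5ar1 held 1 match on the opposite strand to the ISRE core GAAANNGAA, which 7.13% held, and Cfp held no match. The GAS letters TTCNNNGAA matched in none of the 6 and in 7.02% of all promoters. Promoters of C1qa, Cfb and Serping1 were not matched. The windows follow RefSeq starts, and those of C1qc and C5ar1 lie mostly within the GENCODE span of the gene. The match in C5ar1 is in that part. A match is a description of the letters and not a binding site.

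Values are CPM (counts per 1e+06 reads), and the depth read from the steps of low values was 20.2 to 33.4 in units of 1e+06 reads (each read then gives 0.0300 to 0.0495 CPM). Mir21a, the deleted gene, was listed at 0.0001 CPM, the value added to every entry, in all 8 samples, WT included, so that this mRNA library gives no check of the genotype. All 10 macrophage markers were above the filter, with sums of 12116 to 13543 CPM in WT against 13004 to 15507 CPM in miR-21-/- TAMs and Lyz2 as the highest, and 1 of them (Fcgr1) rose. The log2 fold change was below 0 for 7 of the 10, and Adgre1, the F4/80 gene, was 399 to 466 CPM in miR-21-/- TAMs and 542 to 583 CPM in WT TAMs (adjusted p = 0.00137 by limma), a difference under the fold limit. Fibroblast markers, led by Col3a1, summed to 67.0 to 143 CPM in WT against 11.6 to 45.9 CPM in miR-21-/- TAMs. Of these 7 genes, 4 fell (Col1a1, Col3a1, Pdgfra, Pdgfrb), and none was at 0 in all samples. Neutrophil markers, led by S100a9, summed to 768 to 1168 CPM and 564 to 740 CPM, with 1 of 7 (Mmp8) lower. B cell markers, led by Cd79b, summed to 10.8 to 16.8 and 3.60 to 9.995 CPM, and Cd79b fell. Monocyte sums (692 to 1160 and 600.3 to 1079 CPM), dendritic cell sums (11.2 to 19.9 and 15.2 to 38.4 CPM) and endothelial sums (151 to 299 and 198 to 286 CPM) overlapped, with no gene past the threshold. The median log2 fold change of the dendritic cell list was -0.22, with Flt3 (-0.50), Zbtb46 (-0.41), Cd209a (-1.28) and Ccr7 (-0.031) below 0. Xcr1 (1.06) and Clec9a (1.26) were above 0, and Clec9a was 2.30 to 2.74 CPM in WT and 4.18 to 14.0 CPM in miR-21-/- TAMs (adjusted p = 0.00532 by limma). The T and NK cell sums (15.1 to 37.6 and 6.49 to 29.6 CPM) also overlapped. In that list Cd4 fell, and the median log2 fold change was 0.26. Cd8a was 2.80 to 11.6 CPM in miR-21-/- and 1.32 to 2.19 CPM in WT TAMs without passing (adjusted p = 0.00806 by limma). Epithelial or tumor cell markers summed to 18.8 to 24.8 and 12.7 to 17.9 CPM, with Krt19, Epcam and Cldn4 under 1 CPM. The marker genes named for passing the threshold, Adgre1, Ly6g, Clec9a and Cd8a were chosen after their values were seen.

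Of the 8 members above the filter of a mean of 1 CPM, C3 rose in miR-21-/- TAMs and the other 7 did not pass the threshold. C3 is the central component on which all pathways converge, and its transcripts were 2.38-fold higher in miR-21-/- TAMs. The C1q subunits, by far the highest members, were within a few percent of WT on average. Cfb, Cfp and C5ar1 were on average higher, by 1.32-, 1.09- and 1.16-fold, with intervals that included 1. Passing took a fold change over 1.5 together with a limma p, adjusted by Benjamini-Hochberg, of 0.005 or less, on the log2(CPM + 1) scale. At these limits 7.24% of the 13363 genes tested passed in either direction (2.97% rose and 4.27% fell). The median log2 fold change was 0.068 over the 8 members and -0.10 over all genes tested, and 6 members were above 0 and 2 below. Of the genes that passed, 41.1% rose, a share that was 60.2% with values rescaled by the median of ratios, or 59.6% with quantile normalization.

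**Figure D1:**
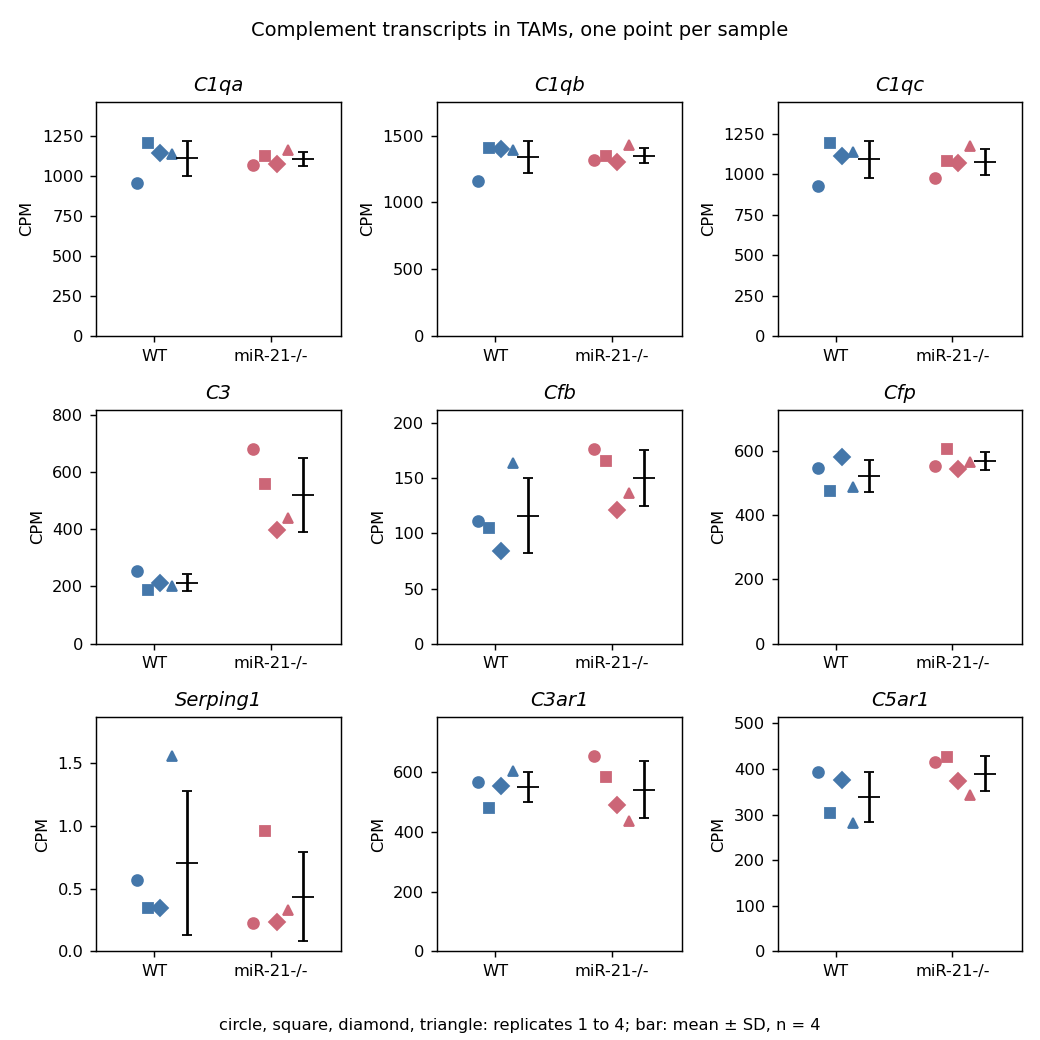
CPM of the 9 complement members (vertical axes, linear and from 0) in the 4 WT (blue) and 4 miR-21-/- (red) samples, with a symbol for each replicate number and bars for the mean ± SD. The C3 values of the groups do not overlap (187 to 255 against 396 to 682 CPM), while the groups of the other 8 genes do.

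C1qa, which encodes the A chain of C1q, had 955, 1209, 1145 and 1138 CPM in WT replicates 1 to 4 and 1071, 1125, 1075 and 1165 CPM in miR-21-/- replicates 1 to 4. C1qb, the B chain, had 1159, 1410, 1399 and 1392 CPM in WT against 1317, 1345, 1304 and 1431 CPM in miR-21-/- TAMs. C1qc, the C chain, had 926, 1191, 1111 and 1137 CPM and 978, 1084, 1070 and 1175 CPM. WT replicate 1 was the lowest sample for all 3 chains, and the groups overlapped. The log2 fold changes were 0.0012 for C1qa, 0.013 for C1qb and -0.016 for C1qc, with adjusted p of 0.992, 0.912 and 0.907 by limma. The 95% intervals of the fold changes were 0.880 to 1.14, 0.888 to 1.15 and 0.857 to 1.14, so that a change of 1.5-fold lay outside each. The sign of these small values turned with the scaling: C1qa and C1qb were at -0.092 and -0.12 with quantile normalization, and C1qc at 0.095 with the median of ratios. Summed over the chains, C1q was 3543 ± 343 CPM in WT against 3535 ± 175 CPM in miR-21-/- TAMs (SD, n = 4), or 0.383% to 0.480% of all listed CPM in a sample.

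The proportions of the C1q chains were compared within each sample. They are encoded side by side on chromosome 4 of GRCm38, C1qb at chr4:136880129-136886187, C1qc at chr4:136889804-136893065 and C1qa at chr4:136895917-136898803. The ratio of C1qa to C1qb was 0.813 to 0.857 over the 8 samples, a coefficient of variation of 1.80%, against 6.97% for C1qa and 6.53% for C1qb over the same samples. The coefficients were 3.17% for C1qa to C1qc and 3.87% for C1qb to C1qc, against 8.51% for C1qc. Within miR-21-/- TAMs they were 1.35%, 4.49% and 4.90% for these ratios in the same order, and 4.02%, 4.26% and 7.50% for C1qa, C1qb and C1qc alone, so that both ratios to C1qc varied there as much as C1qa or C1qb did. The genotypes did not pass a test on any of these ratios, with log2 differences of -0.012 for C1qa to C1qb, 0.017 for C1qa to C1qc and 0.029 for C1qb to C1qc and an adjusted p of 0.743 for each (exact permutation tests, two-sided, adjusted over the 5 pairs of members compared). Per kb of the longest coding transcript, C1qb was highest with 1232 CPM in WT, then C1qa with 1069 and C1qc with 907, and neighbours in that order overlapped between samples. The order held within all 4 WT and all 4 miR-21-/- samples, and in miR-21-/- TAMs the ranges of neighbours did not overlap.

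C3 was the only member whose groups did not overlap. C3 had 255, 187, 211 and 202 CPM in WT replicates 1 to 4 and 682, 558, 396 and 441 CPM in miR-21-/- replicates 1 to 4. The lowest miR-21-/- sample was thus above the highest WT sample, and the miR-21-/- samples were spread more widely. The means were 214 ± 29.1 and 519 ± 128 CPM (SD, n = 4), with a log2 fold change of 1.25 (SE 0.16), a 95% interval of the fold change of 1.86 to 3.05 and an adjusted p of 0.000393 by limma. Groups did not overlap for 35.7% of all genes tested, with miR-21-/- higher for 9.61% and lower for 26.1%. C3 had the 127th highest log2 fold change of the 13363 genes, and relative to the median of all genes its value was 1.36. The gene lies at chr17:57203970-57228136 on the minus strand. C3 stayed past the threshold without any 1 sample, at 1.11 to 1.37.

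Values of other cell types moved with the genotype beside C3. The summed fibroblast and neutrophil markers were lower in every miR-21-/- sample than in any WT sample, and their part in the C3 values was not tested. The hepatocyte genes Alb, Apoa1 and Ttr were at or near 0, with a sum of at most 0.167 CPM in any sample and Ttr at 0 in all 8. In sorted bulk samples, more cells of a type and more RNA per cell cannot be told apart, and this holds for C3 and for all genes below.

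**Figure D2:**
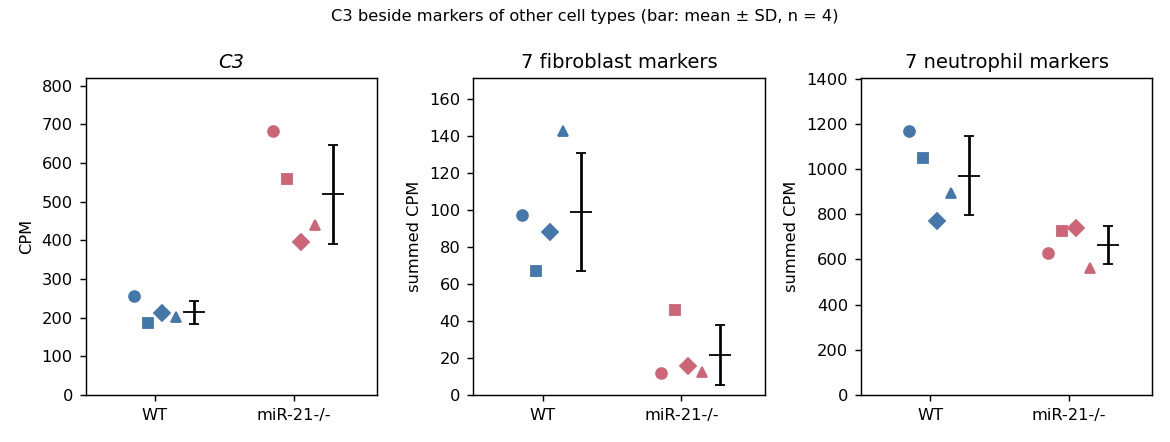
C3 (CPM), the summed CPM of 7 fibroblast markers and the summed CPM of 7 neutrophil markers in the 4 WT and 4 miR-21-/- samples, with a symbol for each replicate number and bars for the mean ± SD. C3 is higher in every miR-21-/- sample than in any WT sample, while both marker sums are lower in every miR-21-/- sample.

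Cfb, the protease that joins C3 in the alternative convertase, had 112, 105, 84.1 and 164 CPM in WT against 177, 166, 121 and 137 CPM in miR-21-/- TAMs. WT replicate 4 was well above the other WT samples, and the groups overlapped. The means were 116 ± 34.0 and 150 ± 25.7 CPM, and the log2 fold change of 0.40 (SE 0.19) did not pass, with a 95% interval of the fold change of 0.987 to 1.75 and an adjusted p of 0.120 by limma. Without WT replicate 4 the log2 fold change was 0.57 and the adjusted p 0.0115 by limma, still not past the threshold. That sample also had the highest fibroblast sum (143 CPM), and the part of this in the Cfb values was not tested. Leaving out WT replicate 3 instead gave a log2 fold change of 0.26 and an adjusted p of 0.293 by limma. Cfb lies at chr17:34856374-34862518 and overlaps Gm20547, which spans nearly all of it and reached at most 1.06 CPM in any sample; how reads shared by both were counted is not known.

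The ratio of C3 to Cfb was 1.23 to 2.51 in WT against 3.22 to 3.85 in miR-21-/- TAMs, with means of 1.95 ± 0.568 and 3.42 ± 0.292. These groups did not overlap. The log2 difference of 0.86 had p = 0.0286, the smallest that an exact two-sided permutation test of 4 against 4 can give, and an adjusted p of 0.143 over the 5 pairs, which is the smallest 1 pair at that p can reach. In WT, C3 and Cfb were alike per kb of transcript (41.6 and 42.2 CPM per kb) and overlapped, whereas in miR-21-/- TAMs C3 was at 101 and Cfb at 54.6 CPM per kb, with no overlap.

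**Figure D3:**
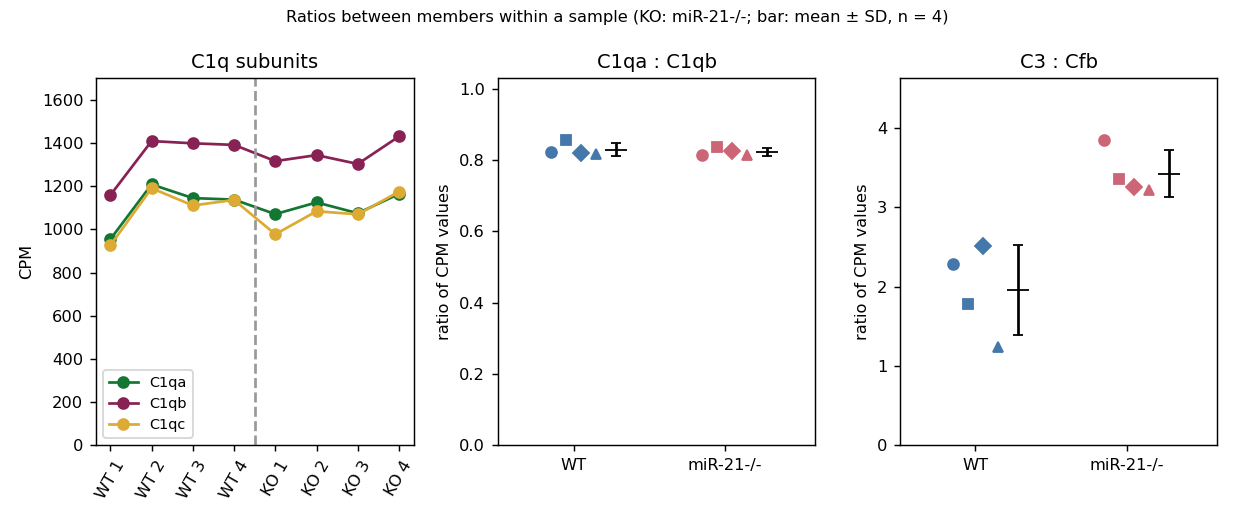
CPM of the 3 C1q subunits in each sample (left; lines join samples only to guide the eye, KO stands for miR-21-/-), and the ratios C1qa to C1qb (centre) and C3 to Cfb (right) by genotype, with bars for the mean ± SD. The C1qa line lies close to the C1qc line and below the C1qb line in every sample, and the C1qa to C1qb ratio stays at 0.813 to 0.857, while the C3 to Cfb ratio is 1.23 to 2.51 in WT against 3.22 to 3.85 in miR-21-/- samples.

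Cfp, the properdin gene on chromosome X (chrX:20925454-20931555), had 547, 475, 580.3 and 489.6 CPM in WT against 555, 608, 543 and 566 CPM in miR-21-/- TAMs. The groups overlapped, and the log2 fold change of 0.12 did not pass (95% interval of the fold change 0.969 to 1.22, adjusted p = 0.229 by limma). With the median of ratios it was 0.23 with an adjusted p of 0.0374, and with quantile normalization 0.038 with an adjusted p of 0.708 (both by limma). Serping1, at chr2:84765387-84775444, was the lowest member. It had 0.568, 0.346, 0.346 and 1.55 CPM in WT against 0.224, 0.959, 0.230 and 0.331 CPM in miR-21-/- TAMs, which is 6 to 39 reads a sample. It fell below the filter, and in an exact two-sided permutation test its log2 difference of -0.22 had p = 0.457. That difference was -0.0091 without WT replicate 4, -0.38 without miR-21-/- replicate 2 and -0.54 with a pseudocount of 0.1. WT replicate 4 and miR-21-/- replicate 2, with 39 and 32 reads, stood above the others, and the coefficient of variation was 81.9% in WT and 80.8% in miR-21-/- TAMs.

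The anaphylatoxin receptors were both well expressed and did not pass. C3ar1, the C3a receptor at chr6:122847138-122856161, had 568, 482, 555 and 603 CPM in WT against 654, 583, 490.4 and 438 CPM in miR-21-/- TAMs. C5ar1, the C5a receptor at chr7:16246743-16259540, had 394, 303, 377 and 282 CPM in WT against 416, 426, 374 and 343 CPM. Both overlapped between genotypes. The log2 fold change of C3ar1 was -0.040 (95% interval of the fold change 0.806 to 1.17, adjusted p = 0.819 by limma), and it was 0.071 with the median of ratios. That of C5ar1 was 0.21 (0.967 to 1.38, adjusted p = 0.181 by limma). For C5ar1 it was 0.14 with quantile normalization, 0.32 with the median of ratios and 0.13 without WT replicate 4. The difference between the receptors, -0.25 for C3ar1 against C5ar1, had an exact permutation p of 0.114 and an adjusted p of 0.286. Without WT replicate 4 this difference was -0.12, with an adjusted p of 0.571 by the same test. Neutrophils also carry C5ar1. Their summed markers were lower in miR-21-/- TAMs, though Ly6g was on average higher. The part of these cells in the C5ar1 values was not tested. Per kb, C5ar1 (133) and C3ar1 (128) overlapped in WT, below Cfp (320 CPM per kb) and above C3 and Cfb.

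**Figure D4:**
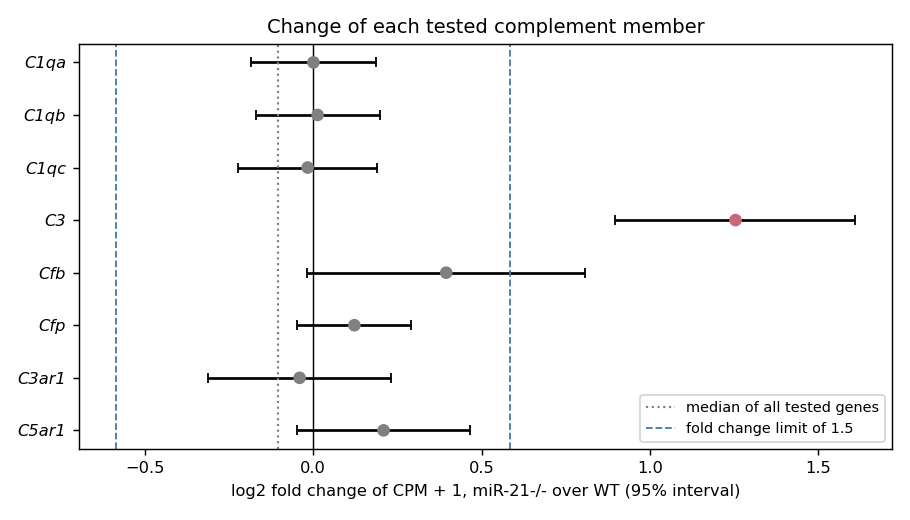
Log2 fold change of CPM + 1, miR-21-/- over WT (horizontal axis), of the 8 members above the filter, with 95% intervals from limma. The dotted line is the median of all tested genes (-0.10) and the dashed lines mark a fold change of 1.5; only C3 (1.25) has its interval wholly beyond them.

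The other genes of the system were read from a list of 43 complement genes, of which 22 were above the filter. Of these 22, 3 rose and 6 fell, or 40.9% against 7.24% of all genes, and their median log2 fold change was -0.17. The list was chosen with earlier results of these data known, so this share is a description and not a test. C1ra, C1rl and Itgb2 rose, while Fcna, Colec12, Clu, Cd55, Cd59a and C5ar2 fell. The count was sensitive to the processing. With no filter 3 rose and 0 fell, Clu and C5ar2 having adjusted p of 0.00760 and 0.00683 by limma. With a pseudocount of 10, 2 rose and 1 fell. Over all genes, 515 of 30634 passed with no filter and 453 of 13363 with a pseudocount of 10. At that pseudocount Clu (-0.43), Colec12 (-0.42) and C5ar2 (-0.51) were under the fold limit. Of the 21 genes below the filter, 6 were of the terminal pathway.

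Among 14 classical and lectin genes 7 were tested, of which 2 rose and 2 fell. C1ra, the C1r protease, had 25.6 to 29.6 CPM in WT against 48.9 to 54.1 CPM in miR-21-/- TAMs, and rose by 0.89 on the log2 scale (SE 0.060, adjusted p = 1.33e-05 by limma), though reads could be shared with its near-identical copy C1rb. C1rl, a C1r-like protease next to it on chromosome 6, rose from 14.8 ± 2.07 to 23.4 ± 0.929 CPM (log2 fold change 0.64), but was under the fold limit without WT replicate 1 (0.58) and with a pseudocount of 10 (0.44). Fcna (ficolin A), a recognition lectin, fell, with 85.9 ± 33.3 and 21.2 ± 3.62 CPM, which at -1.89 was the largest fall on the log2 scale among the 22 tested (adjusted p = 0.000756), and Colec12, a scavenger collectin, fell, with 5.34 ± 1.81 and 1.38 ± 0.403 CPM. The other 4 recognition lectins on the list were below the filter. The groups did not overlap for C1ra, C1rl, Fcna or Colec12. Colec12 and Fcna did not pass without the filter, at adjusted p of 0.00737 and 0.00695 by limma.

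Of the terminal genes only C6, a part of the membrane attack complex, was tested. It was 8.12 ± 4.13 CPM in WT against 2.12 ± 2.22 CPM in miR-21-/- TAMs, with overlapping groups, and did not pass (log2 fold change -1.64, adjusted p = 0.0209), but passed without miR-21-/- replicate 4 at -2.06 and 0.00393 by limma. Cfd, the factor D gene and the one other alternative pathway gene on the list, was below the filter.

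Among the regulators that passed, Clu (clusterin), a fluid phase inhibitor of the terminal complex, fell from 6.60 ± 0.688 to 2.34 ± 0.967 CPM (log2 fold change -1.23, adjusted p = 0.000946 by limma). On the membrane side, 2 of 4 tested genes fell. Cd55, which speeds the decay of convertases, was 2.20 ± 0.703 and 0.738 ± 0.284 CPM, and Cd59a, which blocks the attack complex, was 4.12 ± 0.909 and 2.04 ± 0.300 CPM. Their adjusted p were 0.00454 and 0.00312 by limma, and both lost the call in 7 of 8 fits that left out 1 sample, all except that without WT replicate 4, where they had 0.00233 and 0.00125. Neither passed with the median of ratios (0.00707 and 0.00584) or with quantile normalization (0.00904 and 0.0142). Cr1l, a rodent convertase regulator, was highest of this role at -0.029 and changed sign with the median of ratios (0.079). Fibroblast markers were lower in the same samples as these genes, and their part in it was not tested.

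Among 10 receptors 8 were tested, with 1 higher and 1 lower. Itgb2, the beta chain shared by complement receptors 3 and 4, was higher, from 758 ± 82.5 to 1139.8 ± 50.8 CPM, and its log2 fold change of 0.59 was just over the fold limit, which it did not reach with quantile normalization (0.53) nor without WT replicate 1, 2 or 3 or miR-21-/- replicate 4 (0.56 to 0.57). C5ar2, the second C5a receptor, fell from 27.0 ± 3.61 to 16.0 ± 1.99 CPM (-0.72, adjusted p = 0.00108 by limma). It lies beside C5ar1 on chromosome 7, for which the log2 fold change was 0.21.

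**Figure D5:**
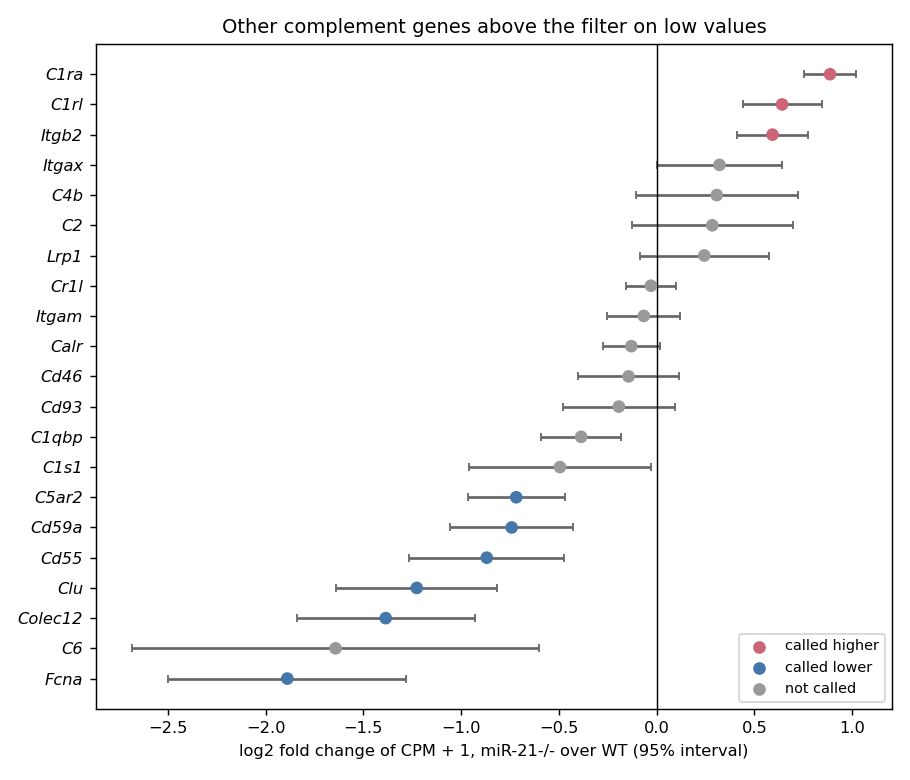
Log2 fold change of CPM + 1, miR-21-/- over WT (horizontal axis), with 95% intervals from limma, of 21 of the 22 listed complement genes above the filter that are not members, in order. The 3 genes past the threshold on the right are C1ra, C1rl and Itgb2, and the 6 on the left run from C5ar2 (-0.72) to Fcna (-1.89).

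The genes whose profiles over the 8 samples were most like those of the members were ranked by the root mean square difference of log2(CPM + 1) values centred on each gene's mean. For the mean of the C1q subunits these included Nt5c and Atp13a1, with differences of 0.037 and 0.044 log2 units. For C3 they were Cxcl11 (0.11), Clec4d (0.14) and A230028O05Rik (0.14). Clec4d, a C-type lectin receptor, was 91.6 ± 20.002 CPM in WT against 239 ± 40.0 CPM in miR-21-/- TAMs, while Cxcl11, a chemokine, was low in both, at 0.631 ± 0.368 and 3.16 ± 1.21 CPM. Amd2, Atp10a and 5430427O19Rik were nearest to Cfb, G6pd2, Iqsec2 and Nploc4 to Cfp, Ms4a7, Prkce and Ppp1r16a to C3ar1, and Synj2, Gm44250 and Peak1 to C5ar1. Serping1 was left without such a list because it was below the filter. Among the members, C1qa and C1qb were the closest pair at 0.024, and the member nearest to C3 was Cfb at 0.52. These distances describe 8 samples that share their genotypes and carry no test.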

How the data were processed

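mRNA libraries of sorted TAMs were compared between 4 WT and 4 miR-21-/- samples. The authors deposited 1 table of CPM values per gene, with 0.0001 added to each. The submitters' processing notes name STAR, Partek 7.0 and mm10; the counting rule and strand are not given in the sources used here, so genes that overlap or have near-identical copies (C4a and C4b, for example) are uncertain. Of the matched genes, 97.1% have the same start in GENCODE M21. Depth, read from the steps of low values, was 29.9, 28.9, 20.2 and 25.1 in WT and 26.8, 33.4, 26.0 and 30.2 in miR-21-/- samples, in units of 1e+06 reads. Up to 20 reads, 72.5% to 73.6% of values were whole reads within 0.02, so reads were not recovered for the table as a whole and no count test was run. Reads given for Serping1 are its CPM over the step of 1 read. With 4 samples per genotype, precision is limited.

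From the deposited values, log2(CPM + 1) was fitted with limma 3.58.1 in R 4.3.3 (eBayes with intensity trend) over 13363 genes with a mean of at least 1 CPM, with Benjamini-Hochberg adjustment over all of them. The threshold, as stated in the study, was a fold change over 1.5 with an adjusted p of 0.005 or less. This scale understates changes of low genes. Single values and pairs of members were compared with exact two-sided permutation tests. Levels per kb used the longest coding transcript. Genes named are the 9 members, the listed complement genes that passed or had the highest or lowest change of their role, the 3 genes nearest to each member's profile and the highest marker of each list; a few other genes are named for context. Some genes selected by the rule are not reported here. The members and lists were chosen with earlier results of these data known. The fit was tested on simulated data. Alternatives were other pseudocounts, filters, scalings, weights, a replicate block, a looser threshold and leaving out each sample.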

Additional observations from a re-analysis of the deposited data

Results flagged for a closer look

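Over 42 groups of 4 samples (21 genes in each genotype), 3 held a sample far from the rest by Dixon's criterion, and chance gives about 1 in 20 groups. C1qb was 1158.91 CPM in WT replicate 1, against 1392 to 1410 CPM in the other WT samples. Serping1 was 0.95942 CPM in miR-21-/- replicate 2, against 0.224 to 0.331 CPM in the others. Itgb2 was 881.384 CPM in WT replicate 4, against 705 to 725 CPM in the others.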

How the results depend on the processing

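C3 was the only member past the threshold under all 10 alternatives and without any 1 sample, with log2 fold changes of 1.18 to 1.36 and 1.11 to 1.37 and adjusted p of 0.000327 to 0.00412 by limma. The count of other complement genes past it was 9, and was 3 with a pseudocount of 10 (2 higher, 1 lower), 3 without a filter (3 higher, 0 lower), and 5 to 10 without 1 sample (5 without WT replicate 1); the cause was not tested. With a filter of 5 CPM it was 5, because Colec12, Clu, Cd55 and Cd59a were then not tested. Rescaling by the median of ratios moved the median of all genes by 0.10. Members near 0 changed sign. C1qa was -0.092 and C1qb -0.12 with quantile normalization, C1qc was 0.095 with the median of ratios and 0.0034 with arrayWeights, and C3ar1 was 0.071 with the median of ratios. Cr1l was 0.079 and 0.050 with the median of ratios and quantile normalization. Without 1 sample C1qa was -0.070 to 0.043, C1qb -0.055 to 0.039, C1qc -0.093 to 0.029 and C3ar1 -0.14 to 0.056. Pair differences turned with quantile normalization to 0.030 (C1qa minus C1qb) and -0.017 (C1qb minus C1qc), and without 1 sample were -0.021 to 0.0038, -0.0045 to 0.044 and, for C1qa minus C1qc, -0.012 to 0.036. None of these was past a threshold in any fit.

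Replicate numbers here follow the order of the samples and not the numbers in their titles, which differ for miR-21-/- replicates 2 to 4. For each tested gene, the mean of its genotype was subtracted from the log2(CPM + 1) values. These deviations, not the values themselves, correlated at 0.086, -0.11, -0.15 and 0.23 between samples with the same replicate number. By title number, WT replicate 3 with miR-21-/- replicate 2 gave 0.14, and WT replicate 4 with miR-21-/- replicate 3 gave 0.034. These values do not show a pairing by either number. With the replicate number as a block, which does not follow the title numbers, 907 genes passed in place of 967 and C3 was still the 1 member. In that fit 7 of the other complement genes passed, without Cd55 and Cd59a (adjusted p of 0.0149 and 0.0118 by limma). No block by title number was fitted. The precision of all values is limited by 4 samples per genotype.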

Other observations

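Vsig4, a macrophage receptor for C3 fragments on the complement list, fell below the filter and was chosen after its values were seen. It was 0.644 ± 0.255 CPM in WT against 0.0567 ± 0.0466 CPM in miR-21-/- TAMs (SD, n = 4), and the groups did not overlap.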
